A study of Mus musculus with 12 samples.

Results

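The 10 genes described here encode dual-specificity phosphatases that act on mitogen-activated protein (MAP) kinases: Dusp1, Dusp2, Dusp4, Dusp5, Dusp6, Dusp7, Dusp8, Dusp10, Dusp14 and Dusp16. They were taken by name and are 10 of the 20989 loci in the expression files. Their level was measured by sequencing of poly-A RNA from the auditory cortex of acute brain slices of 4-week-old C57bl6/J mice. Slices recovered in dissection buffer, were divided along the midline, and the hemispheres then rested in artificial cerebrospinal fluid (aCSF). In each of 6 mice, 1 hemisphere stayed in fresh aCSF for 1 h (control, n = 6) and the other was kept for 1 h in aCSF with the cocktail (cocktail, n = 6). The cocktail held 50 µM (-)-bicuculline methiodide, a blocker of GABA-A receptors, 100 µM norepinephrine, 50 µM carbamoylcholine, a cholinergic agonist, 100 µM dopamine, 100 µM serotonin and 40 µM ascorbic acid. Per the study's methods, both hemispheres then had another 1 h of rest in aCSF without the cocktail. All libraries therefore come from cut, incubated tissue, and every agent was given at once, so the response cannot be assigned to one of them.

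MAP kinases are switched on when an upstream kinase adds phosphate to both a threonine and a tyrosine in the activation loop, and dual-specificity phosphatases remove both. In neurons, the MAP kinase ERK carries signals from glutamate and neuromodulator receptors to the nucleus, and several of these phosphatases are themselves transcribed in response to that signal and limit it. Of the genes described here, Dusp1, Dusp2, Dusp4 and Dusp5 are inducible nuclear enzymes, and Dusp6 and Dusp7 are cytoplasmic ERK-selective enzymes. Dusp8, Dusp10 and Dusp16 prefer the stress kinases JNK and p38. Dusp14 is a small atypical phosphatase, which lacks the MAP kinase binding domain.

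The promoters of 3 members are shown because they hold motifs bound by activity-regulated transcription factors. RefSeq promoter sequences (GRCm38.p6) matched 9 of the 10 members, all but Dusp4, and the 250 bases before the start site were searched on both strands. The full cyclic AMP response element TGACGTCA, the site of CREB, was in the windows of Dusp1 and Dusp8, that is 2 of 9, against 1.55% of 32817 promoter windows. Its shorter core TGACG, which overlaps it, was in Dusp1, Dusp5, Dusp8 and Dusp16, against 17.7% of windows. The CArG box, bound by serum response factor, was in Dusp5 and in no other member, against 1.47% of windows. TGACTCA, the AP-1 site (4.46% of windows), GCGTGGGCG, the Egr site (0.536%), and TATAAA (12.4%) were in none of the 9. In Dusp1 the full element lay 143 to 136 bases before the start site, in Dusp8 its 2 copies lay at 107 to 100 and at 63 to 56, and in Dusp5 the CArG boxes lay end to end at 82 to 73 and at 72 to 63. The windows printed are chr17:26508473-26508722 on the minus strand for Dusp1, chr19:53528895-53529144 on the plus strand for Dusp5, and chr7:142095285-142095534 on the minus strand for Dusp8. Capitals mark the motifs found, and each sequence reads 5′ to 3′ towards the start site.
Dusp1: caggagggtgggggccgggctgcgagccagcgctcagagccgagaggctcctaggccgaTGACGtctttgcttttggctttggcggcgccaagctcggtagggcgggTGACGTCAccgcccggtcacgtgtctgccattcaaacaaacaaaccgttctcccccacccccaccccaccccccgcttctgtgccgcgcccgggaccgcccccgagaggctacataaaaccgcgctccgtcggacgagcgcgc
Dusp5: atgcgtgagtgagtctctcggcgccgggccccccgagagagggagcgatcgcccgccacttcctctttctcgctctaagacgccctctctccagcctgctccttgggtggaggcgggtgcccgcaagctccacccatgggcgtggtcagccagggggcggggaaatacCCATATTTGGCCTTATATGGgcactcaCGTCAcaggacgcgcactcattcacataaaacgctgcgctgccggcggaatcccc
Dusp8: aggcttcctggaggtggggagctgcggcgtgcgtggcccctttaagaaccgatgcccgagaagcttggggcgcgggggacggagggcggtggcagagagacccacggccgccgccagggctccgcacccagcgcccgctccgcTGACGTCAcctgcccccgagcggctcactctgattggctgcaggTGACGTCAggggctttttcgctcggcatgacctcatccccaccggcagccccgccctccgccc
The RefSeq start site of Dusp5 lies 173 bases from the start of its locus in the expression files, and that of Dusp10 lies 80 bases away. The G and C content of the windows shown was 68.4% for Dusp1, 64.0% for Dusp5 and 71.6% for Dusp8, against a median of 52.4% over all windows. A match is a description of the letters only: of the genes that share the full element, Dusp1 was higher after the cocktail and Dusp8 was not, as given in the next paragraphs.

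Levels are given in FPKM, a read number scaled by transcript length and by library size, which allows genes to be compared per length. Differences are cocktail minus control on the log2(FPKM + 1) scale, fitted with limma with the mouse in the model, and a gene was called where the Benjamini-Hochberg adjusted p over the 12032 loci tested was under 0.05. Depth recovered from the files ranged from 10600193 to 19768184 reads per control library and from 13539422 to 17506709 per cocktail library. The cell type content of the tissue was described with marker lists, and its cortical identity was not tested. The 6 excitatory neuron markers summed to 1336 to 1480 FPKM in control libraries and to 1264 to 1455 FPKM in cocktail libraries. Of the 3 choroid plexus markers, Ttr was at most 0.0455 FPKM in any library, Folr1 was at most 0.266, and Kl was at 0.411 to 1.59. In limma, 0 of the 34 marker loci tested for 7 cell types were called, near the 1.5% called over all loci. Of the 34, 1 had an unadjusted p under 0.05 (Cdh5, endothelial), against 968 of 12032 loci, and voom on recovered reads called 0. The 5 oligodendrocyte markers had differences of 0.07 to 0.16, with sums of 1846 to 2406 FPKM in control and 2149 to 2487 in cocktail libraries, and their part in the results was not tested. All 6 inhibitory neuron markers were also higher, by 0.03 to 0.10. So were 4 of 5 astrocyte, 4 of 5 endothelial, 3 of 6 excitatory neuron and 3 of 6 microglia markers. Over all 12032 loci tested, 54.4% were higher.

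Of the 10 members, 6 were called and all 6 were higher after the cocktail: Dusp1, Dusp4, Dusp5, Dusp6, Dusp10 and Dusp14. Dusp1, Dusp5 and Dusp6 rose most, by 1.70 to 1.79 times in mean FPKM, and Dusp4, Dusp10 and Dusp14 rose by 1.29 to 1.41 times. Dusp2, Dusp7, Dusp8 and Dusp16 were not called. Over all loci tested, 1.5% were called and 1.22% were called higher. The members were chosen with earlier results of these data known, so this contrast is not independent evidence. The median difference was 0.36 over the 10 members and 0.01 over all loci. The FPKM of all 10 genes in each library is plotted with the hemispheres of each mouse joined. In such bulk tissue, a change in the number of cells that express a gene and a change in RNA per cell cannot be told apart.

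**Figure D1:**
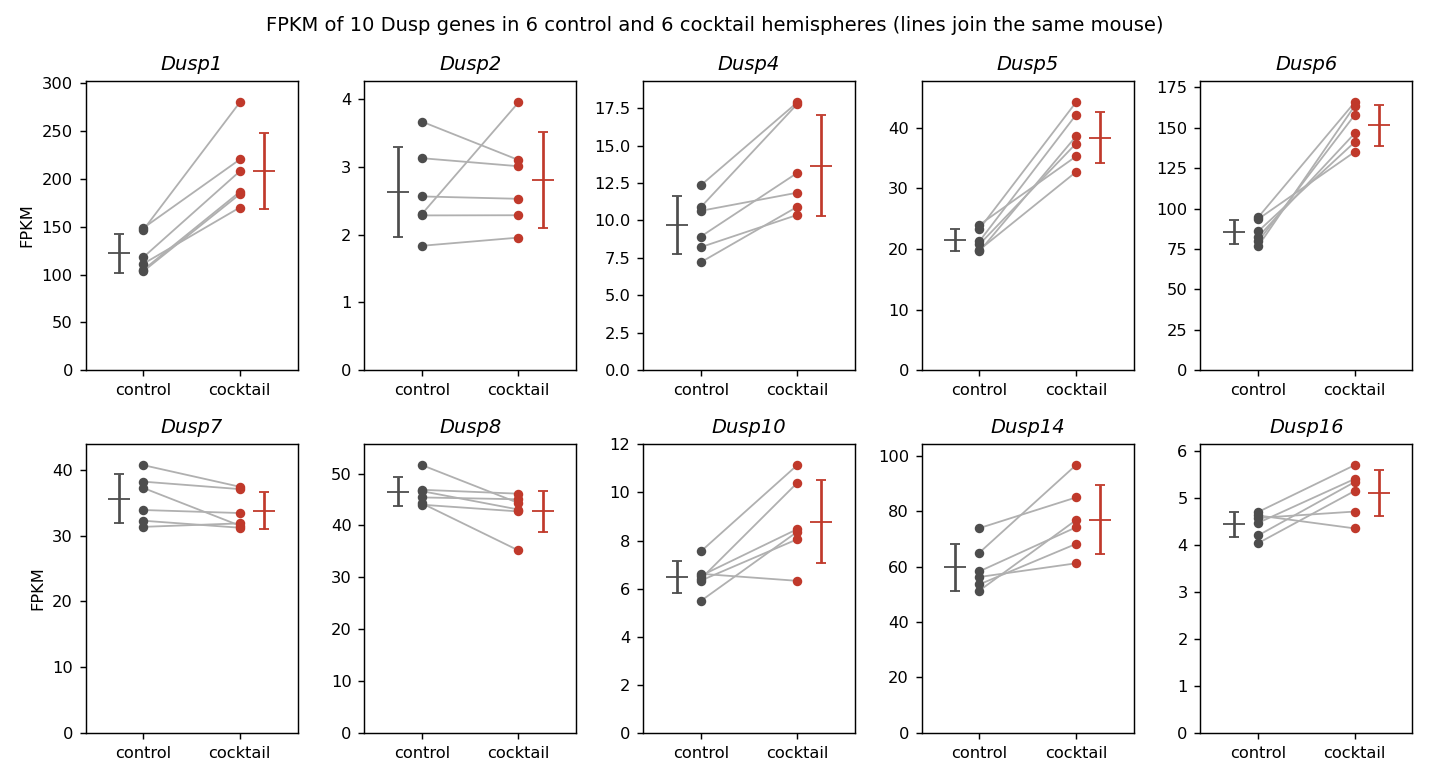
FPKM (vertical axes, from 0) of the 10 genes in control (grey) and cocktail (red) hemispheres; each dot is a library, lines join the hemispheres of a mouse, and bars beside the dots show mean ± SD, n = 6. The cocktail values of Dusp1 (170.0 to 279.8), Dusp5 (32.7 to 44.1) and Dusp6 (135 to 166) all lie above the control values.

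Among the inducible nuclear enzymes, 3 of 4 rose. Dusp1 (chr17:26505591-26508472, mm10), which acts on JNK, p38 and ERK, had a lowest, median and highest FPKM of 103, 115 and 149 in control and of 170.0, 197 and 279.8 in cocktail hemispheres. The groups did not overlap. Mean FPKM was 122 ± 20.4 (SD, n = 6) in control and 208 ± 39.5 in cocktail, a log2 difference of 0.76 (SE 0.054, 95% interval 0.64 to 0.88, limma adjusted p = 1.75e-05), with the cocktail hemisphere higher in 6 of 6 mice. The study compared these same libraries and reported a set of induced genes. The direction of Dusp1 and of the other members here is therefore not independent evidence.

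Dusp5 (chr19:53529318-53541322), a nuclear phosphatase selective for ERK, had the largest ratio of mean FPKM of the 10. Its FPKM was 19.6, 21.01 and 24.0 (lowest, median, highest) in control and 32.7, 37.9 and 44.1 in cocktail hemispheres, again with no overlap. The difference was 0.81 (SE 0.060, interval 0.67 to 0.94, limma adjusted p = 1.75e-05), higher in 6 of 6 mice. GENCODE M21 places AC137853.2 over exons of Dusp5 on the opposite strand. The longest overlap of a single pair of exons was 547 bases. That gene is not among the loci measured. The libraries keep the strand, but the strand setting of the FPKM estimate is not given in the sources used here, so reads of AC137853.2 may be included in the value of Dusp5.

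Dusp4 (chr8:34807610-34819894), an inducible nuclear phosphatase of ERK and JNK, rose less and from a lower level. It was at 7.21, 9.78 and 12.3 FPKM (lowest, median, highest) in control and at 10.4, 12.5 and 17.9 in cocktail hemispheres, so the groups overlapped although the cocktail hemisphere was higher in 6 of 6 mice. Its difference was 0.44 (SE 0.067, interval 0.30 to 0.59, limma adjusted p = 0.00442). Without the mouse in the model the same difference had an adjusted p of 0.335.

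Dusp2 (chr2:127336159-127338377), best known from activated lymphocytes, had the lowest level of the 10 and was not called. Its FPKM was 1.84, 2.44 and 3.67 in control and 1.96, 2.77 and 3.95 in cocktail hemispheres (lowest, median, highest), resting on 43 to 76 reads per library. The ranges overlapped almost entirely, and the cocktail hemisphere was higher in 3 of 6 mice. The difference was 0.07 with an interval of -0.13 to 0.26 (limma adjusted p = 0.906), and without mouse 3 it was -0.036. The interval ends below the difference of Dusp4, but the log2(FPKM + 1) scale understates the change of a gene this low. A change as large as that of Dusp4 is therefore not excluded.

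The cytoplasmic pair parted. Dusp6 (chr10:99263231-99267489), which dephosphorylates ERK, had an FPKM of 76.8, 84.3 and 94.6 (lowest, median, highest) in control and of 135, 152 and 166 in cocktail hemispheres. The groups did not overlap, and the difference was 0.82 (SE 0.065, interval 0.68 to 0.96, limma adjusted p = 2.92e-05), higher in 6 of 6 mice. It was the largest log2 difference among the members and rank 18 of the 147 loci called higher, with Dusp5 at 20 and Dusp1 at 25.

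Dusp7 (chr9:106368632-106375723), its close relative, had an FPKM of 31.3, 35.6 and 40.7 in control and of 31.2, 32.6 and 37.4 in cocktail hemispheres. The ranges overlapped, and the cocktail hemisphere was higher in 1 of 6 mice. The difference was -0.07 (interval -0.18 to 0.03, limma adjusted p = 0.783). The ratio of Dusp6 to Dusp7 within a library was 2.43 ± 0.415 (SD, n = 6) in control, with a range of 1.96 to 3.02, and 4.52 ± 0.595 in cocktail hemispheres, with a range of 3.81 to 5.20 and no overlap. The ratio of Dusp1 to Dusp6 was 1.42 ± 0.125 in control and 1.37 ± 0.243 in cocktail hemispheres, with overlapping ranges.

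Of the enzymes that prefer JNK and p38, 1 of 3 was called. Dusp10 (chr1:184034461-184075636) had an FPKM of 5.49, 6.47 and 7.54 (lowest, median, highest) in control and of 6.32, 8.42 and 11.1 in cocktail hemispheres. The groups overlapped, and the cocktail hemisphere was higher in 5 of 6 mice, with -0.06 in mouse 6. The difference was 0.37 (SE 0.080, interval 0.20 to 0.55, limma adjusted p = 0.0428). This call was the weakest of the 6: the adjusted p was 0.0791 without mouse 1, 0.125 without mouse 2, 0.189 without mouse 3, 0.188 without mouse 4 and 0.145 without mouse 5, at differences of 0.32 to 0.39.

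Dusp8 (chr7:142079487-142095284), abundant in brain, was lower in the cocktail hemisphere of 6 of 6 mice but was not called. Its FPKM was 44.0, 46.0 and 51.6 in control and 35.2, 43.7 and 46.1 in cocktail hemispheres (lowest, median, highest), with overlap. The difference was -0.12 (SE 0.052, interval -0.23 to -0.01, unadjusted p = 0.0381, limma adjusted p = 0.552). An exact two-sided permutation test flipped the signs of the 6 within-mouse differences and gave p = 0.03125. This is the smallest that 6 pairs allow and is not adjusted for the loci tested. Dusp1, Dusp4, Dusp5, Dusp6 and Dusp14 had the same p in that test. The share of all loci lower in 6 of 6 mice was not counted. Dusp16 (chr6:134715468-134792628) stood at 4.04, 4.52 and 4.70 FPKM in control and at 4.35, 5.24 and 5.70 in cocktail hemispheres, higher in 5 of 6 mice. Its difference of 0.17 (interval 0.03 to 0.30, unadjusted p = 0.0232) had a limma adjusted p of 0.457.

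Dusp14 (chr11:84048045-84068357), the atypical member, rose moderately from a high level. Its FPKM was 51.4, 57.3 and 73.9 (lowest, median, highest) in control and 61.2, 75.5 and 96.6 in cocktail hemispheres. The groups overlapped, and the cocktail hemisphere was higher in 6 of 6 mice. The difference was 0.36 (SE 0.063, interval 0.22 to 0.49, limma adjusted p = 0.0126). The adjusted p was 0.0609 without mouse 2, 0.0562 without mouse 3, 0.0654 without mouse 4 and 0.222 without the mouse in the model.

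**Figure D2:**
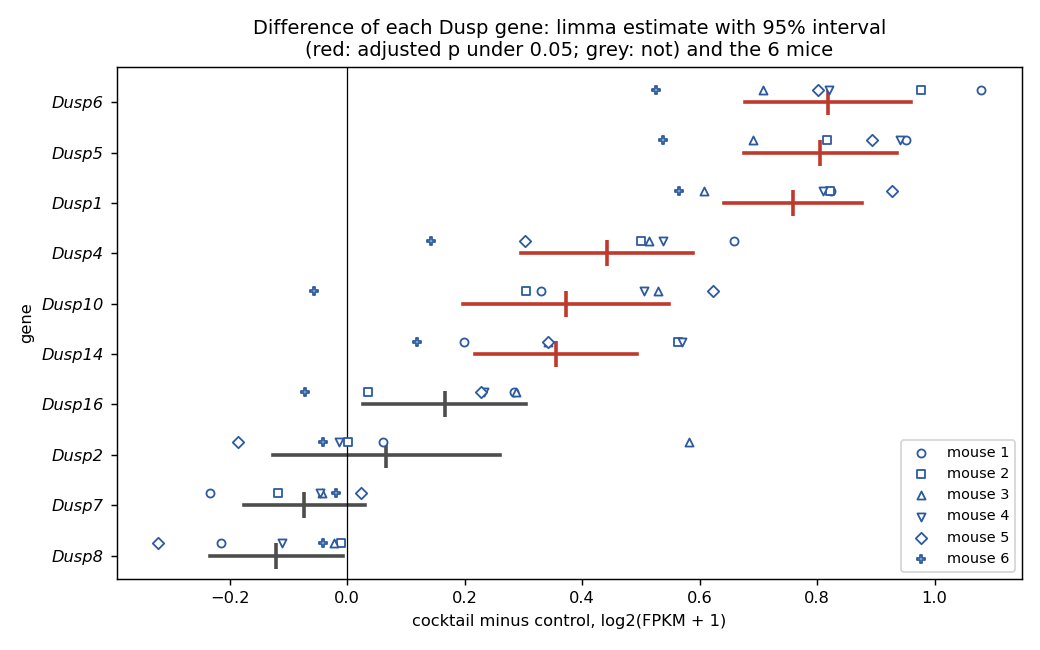
Cocktail minus control on the log2(FPKM + 1) scale (horizontal axis) for each gene (vertical axis); lines are 95% limma intervals with a tick at the estimate, red where the adjusted p was under 0.05, and symbols above each line are the 6 mice. Dusp6, Dusp5 and Dusp1 stand at 0.76 to 0.82, and mouse 6 has the lowest value for each gene drawn in red.

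Groups did not overlap for 3 of the 10 members, against 0.715% of loci with every cocktail library above every control library. For 5 members the cocktail hemisphere was higher in 6 of 6 mice, against 3.64% of loci. Dusp1, Dusp5 and Dusp6 were called in all 14 alternative analyses, with adjusted p values of at most 0.00242, 0.00103 and 0.00159. With the mouse left out of the model, these 3 were the members called.

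The size of the response differed between mice. For all 6 called members the smallest of the 6 differences was that of mouse 6, where their median was 0.33, against 0.57 to 0.74 in the other mice. The median over all loci was -0.02 in mouse 6, 0.10 in mouse 1 and -0.05 to 0.02 in the others. Mouse 1 had the largest difference for Dusp4, Dusp5 and Dusp6, mouse 5 for Dusp1 and Dusp10, and mouse 4 for Dusp14. These differences were not corrected for the median over all loci, so those of mouse 1 include its shift of 0.10. With these medians subtracted, mouse 4 would be highest for Dusp5, and mouse 1 would barely lead for Dusp4 and Dusp6. Mouse 6 would then no longer be lowest for Dusp1 and Dusp14. The control library of mouse 6 was also the shallowest, and the part of depth in this was not tested.

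Control levels differed between mice as well, and not in the same way for each gene. Control hemispheres of mice 5 and 6 had the highest Dusp1 (147 and 149 FPKM), Dusp5 (23.3 and 24.0) and Dusp6 (94.6 and 93.5). Mice 1 and 2 had the lowest Dusp1 (103 and 105) and Dusp6 (76.8 and 79.7) in control, but the highest Dusp14 (73.9 and 65.1) and Dusp4 (10.9 and 12.3). After the cocktail, mice 1 and 2 again had the highest Dusp14 (84.9 and 96.6 FPKM) and Dusp4 (17.8 and 17.9). These FPKM were not rescaled between libraries. A library-wide scale factor from the median of ratios was 0.905 for the control library of mouse 1, against 0.992 to 1.04 for the other control libraries. FPKM in that library therefore ran low across loci. Divided by these factors, its Dusp1 and Dusp6 would no longer be the lowest among control hemispheres. Its Dusp5 would then pass those of mice 5 and 6. No test was made of these differences between mice.

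In control hemispheres the order of mean FPKM was Dusp1, Dusp6, Dusp14, Dusp8, Dusp7, Dusp5, Dusp4, Dusp10, Dusp16 and Dusp2. Neighbours in this order did not overlap in range except Dusp14 with Dusp8 and Dusp4 with Dusp10. Dusp1 lay above 96.5% of the loci tested and Dusp2 above 14.5%. After the cocktail the order was the same except that Dusp5, at 38.3 ± 4.25 (SD, n = 6), passed Dusp7, at 33.8 ± 2.82. Dusp7 had been above Dusp5 in 6 of 6 control libraries, and Dusp5 was above Dusp7 in 4 of 6 cocktail libraries, so their ranges then overlapped. The ranges of Dusp8 with Dusp5 and of Dusp4 with Dusp10 also overlapped after the cocktail.

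Summed over the 10 genes, FPKM was 373 to 425 in control hemispheres (394 ± 21.4, SD, n = 6) and 532 to 654 in cocktail hemispheres (582 ± 41.8), with no overlap. Dusp6 made up 21.7% ± 1.12 of this sum in control and 26.1% ± 1.25 in cocktail hemispheres, from at most 22.7% to at least 24.4%. Dusp1 held 30.9% ± 3.69 and 35.6% ± 4.84, and Dusp14 held 15.2% ± 2.43 and 13.3% ± 2.20, both with overlapping ranges. The stacked levels per library show these shares.

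**Figure D3:**
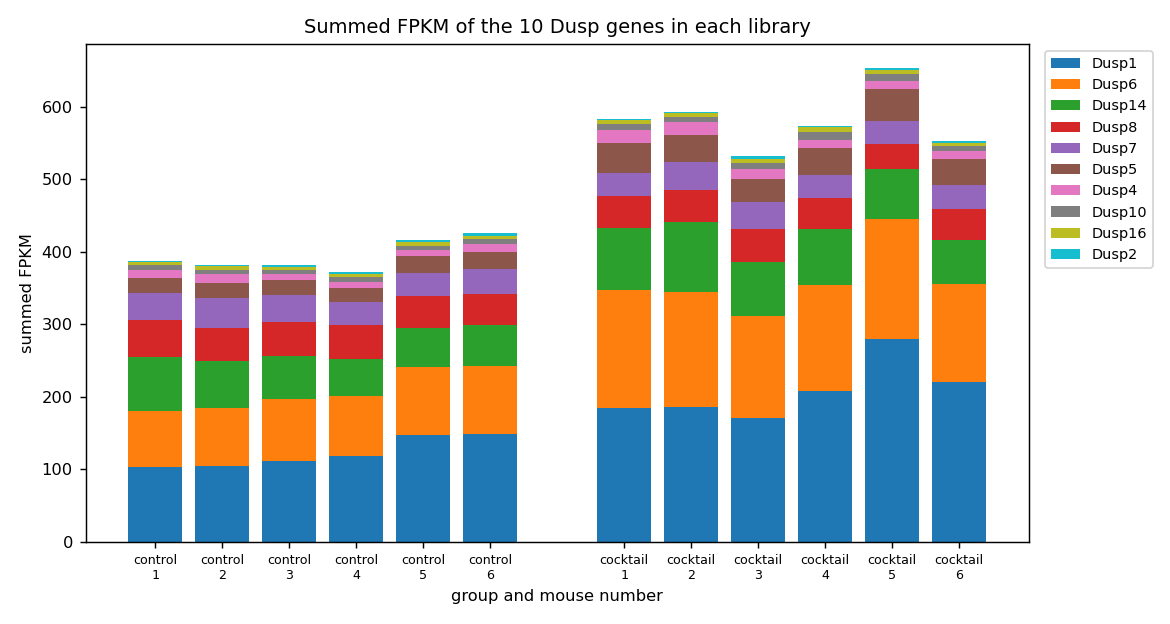
Summed FPKM (vertical axis, from 0) of the 10 genes in each library (horizontal axis, group and mouse number), with each gene as a coloured segment in order of its control level. The 6 cocktail bars reach 532 to 654 and the 6 control bars 373 to 425, and the Dusp1 and Dusp6 segments are the largest in each bar.

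The rest of the pathway was examined through 9 lists of 103 genes, 93 of them tested. In 8 of the lists, which hold the upstream and downstream kinases and the other phosphatases, 0 of 78 loci were called by limma. Over all loci tested the share called was 1.5%, so with 78 loci a count of 0 is near that share. Of the 78, 3 had an unadjusted p under 0.05, against 968 of the 12032 loci tested, and voom on recovered reads called 0. The 14 other dual-specificity phosphatases tested ranged from -0.11 to 0.04 with a median of -0.01. The smallest p among them was that of Ssh1, a phosphatase of the actin regulator cofilin, at -0.11 (limma adjusted p = 0.783). Ptpn5, the striatal-enriched tyrosine phosphatase that also acts on ERK, stood at -0.06 (adjusted p = 0.874).

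Among 12 MAP kinases the median difference was -0.05, and the smallest p was that of Mapk7, which encodes ERK5. Its difference was -0.17 (interval -0.29 to -0.05, limma adjusted p = 0.299), lower in the cocktail hemisphere of all 6 mice. Among 7 MAP kinase kinases it was that of Map2k3, an activator of p38, at 0.20 (adjusted p = 0.191). The smallest p in the remaining lists was that of Rras (-0.16, adjusted p = 0.621) among 15 Ras and Raf genes, Map3k2 (0.13, 0.774) among 14 MAP3K genes, Mknk2 (0.15, 0.480), an ERK-activated kinase of the translation factor eIF4E, among 10 downstream kinases, and Mapk8ip3 (-0.04, 0.887) among 4 JNK scaffolds.

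Of 15 transcription factors that MAP kinases phosphorylate, 4 were called, all higher, with a list median of 0.05. Over all loci tested, 1.22% were called higher. They were Fos, Jun, Jund and Myc. Jun, a partner of Fos in AP-1, rose by 0.48 (SE 0.061, limma adjusted p = 0.00109) and its groups did not overlap. Jund rose by 0.32 (adjusted p = 0.0107) and Myc by 0.37 (adjusted p = 0.0346), both with overlapping groups and in 6 of 6 mice. Jun was called in all 14 alternatives, Jund in 10 of 14 and Myc in 4 of 13. Jund had an adjusted p of up to 0.672 and Myc of up to 0.293, in both cases without the mouse in the model. Leaving out mouse 3 or 4 gave Jund an adjusted p of 0.0523 or 0.0638, and leaving out mouse 1, 2, 4 or 5 gave Myc 0.0511, 0.147, 0.159 or 0.120.

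**Figure D4:**
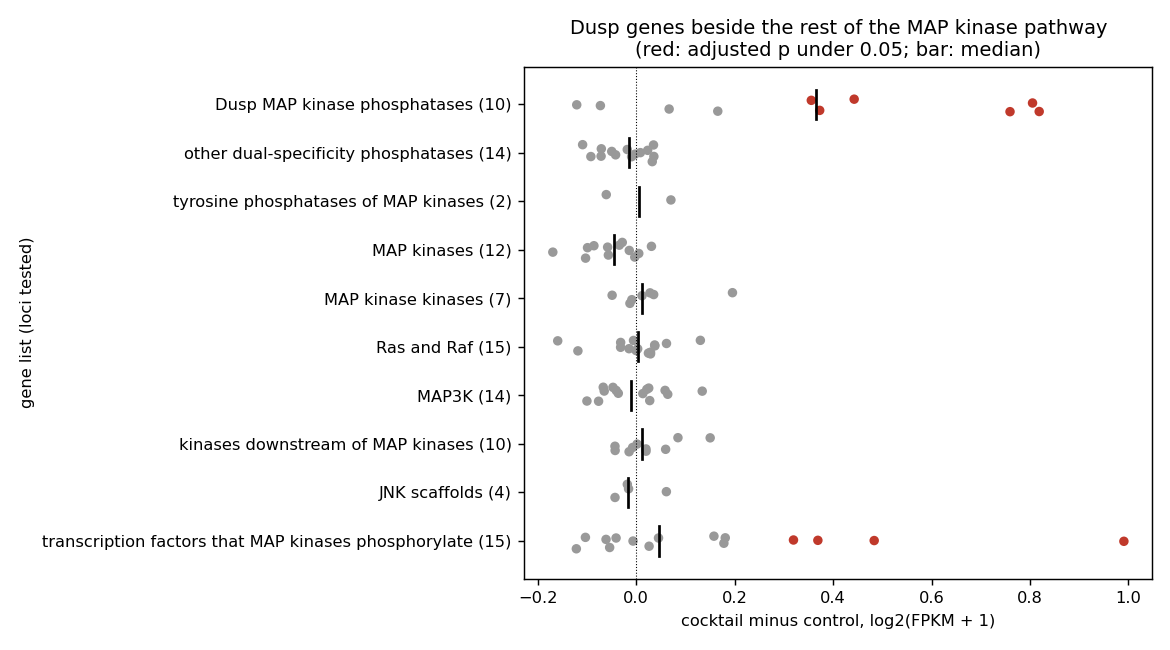
Cocktail minus control on the log2(FPKM + 1) scale (horizontal axis) for the 10 Dusp genes and 9 pathway lists (vertical axis, number of loci tested in parentheses); each dot is a locus, red where the limma adjusted p was under 0.05, and bars are medians. Red dots are in the Dusp row (6 of 10) and the transcription factor row (4 of 15), against 1.5% of all loci tested.

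For each called member, the 3 tested loci with the most similar set of 6 within-mouse differences were found by root mean square distance on the log2 scale, a measure that includes their size. Dusp1 was nearest to Dusp5 (0.084), to Nr4a1 (0.105), an immediate early nuclear receptor, and to Egr2 (0.109), an immediate early zinc finger factor. Dusp5 was nearest to Dusp1, then to Dusp6 (0.104) and Nr4a1 (0.106). Dusp6 was nearest to Fosb (0.088), Junb (0.101) and Npas4 (0.102), all activity-regulated transcription factors. These neighbours had differences of 0.74 to 0.86.

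The members that rose less had other neighbours, which a measure that includes size gives by construction. Dusp4 was nearest to Mcl1 (0.083), an anti-apoptotic relative of Bcl-2, Gpr3 (0.105), a receptor with constitutive activity, and Hspa5 (0.108), a chaperone of the endoplasmic reticulum. Dusp10 was nearest to Trim25 (0.083) and Siah2 (0.111), both ubiquitin ligases, and to Mafk (0.121), a small Maf factor. Dusp14 was nearest to Rab20 (0.093), a small GTPase, to Jund (0.10) and to Midn (0.112). Trim25, Mafk and Rab20 were not called, with limma adjusted p of 0.0543, 0.0759 and 0.0710. All these distances are over the same 6 mice and are given as a description.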

How the data were processed

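The authors removed ribosomal reads with BWA 0.6.1, aligned the rest to mm10 with TopHat 1.4.1 and estimated FPKM with Cufflinks 1.3.0, per the submitters' processing notes and the study's methods. The FPKM values were deposited with a confidence interval for each locus and library. A deposited DESeq2 table of the study's own comparison (fold changes and p-values from read counts) was not used. Reads behind each FPKM were recovered from its interval. Of 36158 values under 20 reads, 83.2% were whole within 0.05.

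Loci were kept where FPKM averaged 1 or more across all 12 libraries. Values were transformed as log2(FPKM + 1) and modelled by treatment and mouse using limma 3.58.1 (R 4.3.3), and the variance was allowed to follow a trend. P-values were adjusted by Benjamini-Hochberg over all loci tested. The pseudocount understates the change of low genes. The pairing of hemispheres comes from the mouse label. Deviations from the group means correlated within each of the 6 mice (r = 0.216 to 0.406, median 0.337), against -0.42 to 0.445, with a median of -0.07, over 30 pairs of different mice. No libraries were copies: the chi-square per locus between libraries of a group was at least 8.81. The fit was tested on simulated data. Alternatives changed the pseudocount, filter, block, scaling and variance model, left out each mouse, or used voom on recovered reads of 11834 loci.

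The members and lists were chosen with earlier results of these data known. Named were all members, in each list the called genes or the one with the smallest p, and the 3 nearest loci of each called member. Positions are given from 1, as the files place each locus. Motifs were searched in RefSeq windows, and exon overlaps taken from GENCODE M21. Protein sequences were not analysed here.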

Additional observations from a re-analysis of the deposited data

Results flagged for a closer look

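Among 30 sets of 6 values examined for the 10 genes (control FPKM, cocktail FPKM and within-mouse differences), 2 held a value that stood apart from the other 5 by a gap larger than Dixon's 95% limit for 6 values allows, where chance alone gives about 1.5 such sets. The cocktail hemisphere of mouse 5 had a Dusp8 FPKM of 35.2, against 42.7 to 46.1 in the other cocktail hemispheres, a gap of 0.687 of the range. For Dusp2, mouse 3 had a log2 difference of 0.58 between hemispheres and the other 5 mice ranged from -0.19 to 0.06, a gap of 0.679 of the range.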

How the results depend on the processing

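With mouse in the model, 180 loci, 6 members and 4 pathway genes were called. With no replicate block, that is without the pairing by mouse, 88 loci (87 of them shared with the paired fit), 3 members and 2 pathway genes were called. Leaving out each mouse in turn gave 104 to 181 loci, the fewest without mouse 4, 4 to 6 members and 2 (without mouse 4) to 4 pathway genes, and voom gave 160 loci, 5 members and 2 pathway genes. Without a filter on low values 123 loci and 4 members were called, and 131 loci and 6 members where the FPKM had to average 5 or more. The share of calls that were higher was 81.7%, and 94.7% with the stricter filter. The difference of Dusp2 ranged from -0.036 (without mouse 3) to 0.12 when each mouse was left out in turn, and no other member changed sign under any alternative. Dusp4 was called in 13 of 14 alternatives, Dusp14 in 9 and Dusp10 in 4, with adjusted p of at most 0.189 for Dusp10. Dusp2, Dusp7, Dusp8 and Dusp16 were called in none. Dusp2 and Dusp16 have no value under that stricter filter. The cause of these changes was not tested. Counting error limits Dusp2 most, at 43 to 76 reads per library.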
